A study of Mus musculus with 6 samples.

Results

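TGF-beta and BMP signalling was followed gene by gene in the somatosensory cortex of Mef2c cKO mice, which were bred to lose Mef2c in most forebrain excitatory neurons. Genes were taken by symbol alone, without use of their values: the TGF-beta, BMP, GDF and inhibin ligands, their type I and type II receptors, Tgfbr3, the Smads, and secreted antagonists including Nog, Chrd, Grem1, Fst and the follistatin-like genes. The rule found 57 of the 21667 named genes, and earlier results of these data were known when it was chosen. Polyadenylated RNA was sequenced from 3 control (Mef2cfl/fl) and 3 Mef2c cKO (Mef2cfl/fl; Emx1-Cre) adult males on a mixed SVeV-129 and C57BL/6J background, 1 library per mouse. Replicate 1 of each genotype was 14 weeks old and replicates 2 and 3 were 12 weeks old. Both genotypes carry the floxed alleles, and the controls have no Cre. Emx1-Cre is active from embryonic stages in progenitors of forebrain excitatory neurons and of some glia, so that adult values follow a long period without MEF2C, and interneurons and microglia keep the gene. The tissue was not sorted, and in such bulk RNA fewer cells of a type and less RNA per cell cannot be told apart.

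Ligands of this family bind as dimers to a complex of type II and type I receptors, which are serine/threonine kinases, and the type I receptor phosphorylates receptor Smads. TGF-betas and activins act mainly through Smad2 and Smad3, and BMPs mainly through Smad1, Smad5 and Smad9 (also called Smad8). Both branches share Smad4, are limited by the inhibitory Smads, and are tuned outside the cell by antagonists that trap ligands before they reach a receptor. In the brain these signals are known for roles in patterning, in neuron and astrocyte differentiation and in synapse formation.

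Levels are given as CPM, the whole reads of a gene, recovered from the deposited values, scaled to a library of 1e6 reads. Totals ran from 19326365 reads in Mef2c cKO replicate 2 to 54128334 in Mef2c cKO replicate 3, so 1 read was worth between 0.0185 and 0.0517 CPM. Genes were tested with limma on log2(CPM + 0.1). To be called, a gene needed a Benjamini-Hochberg adjusted p under 0.05 together with an absolute log2 fold change over 0.3. Fold changes are Mef2c cKO minus control on that scale, which understates the change of genes near 0. Mef2c itself was at 800.3, 771.8 and 800.2 CPM in controls and at 1231, 1276 and 1468 CPM in Mef2c cKO mice (log2 fold change 0.74, SE 0.07, limma adjusted p = 1.8e-04). This total pools all exons, so it is no check on the deleted part or on the genotype labels. Libraries of 1 genotype correlated with each other at r = 0.992 to 0.995 and those of different genotypes at 0.978 to 0.981 across genes.

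Of the 57 members 48 were expressed highly enough to be tested, and 11 were called, 6 higher and 5 lower in Mef2c cKO mice. These are 22.9% of the members tested, beside 13.7% of all 14625 genes tested (5.88% higher and 7.77% lower). The higher genes were the ligands Bmp2, Bmp3 and Tgfb2, the receptor Smad gene Smad3, and Chrd and Fstl1. The lower genes were Fst, the protease gene Bmp1, and the activin-type receptor genes Acvr1b, Acvr2a and Acvr1c. The values of the genotypes did not overlap for 21 of the 48 members (43.8%), compared with 33.8% of all genes tested. The median log2 fold change was 0.11 over the members and 0.01 over all genes tested.

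**Figure D1:**
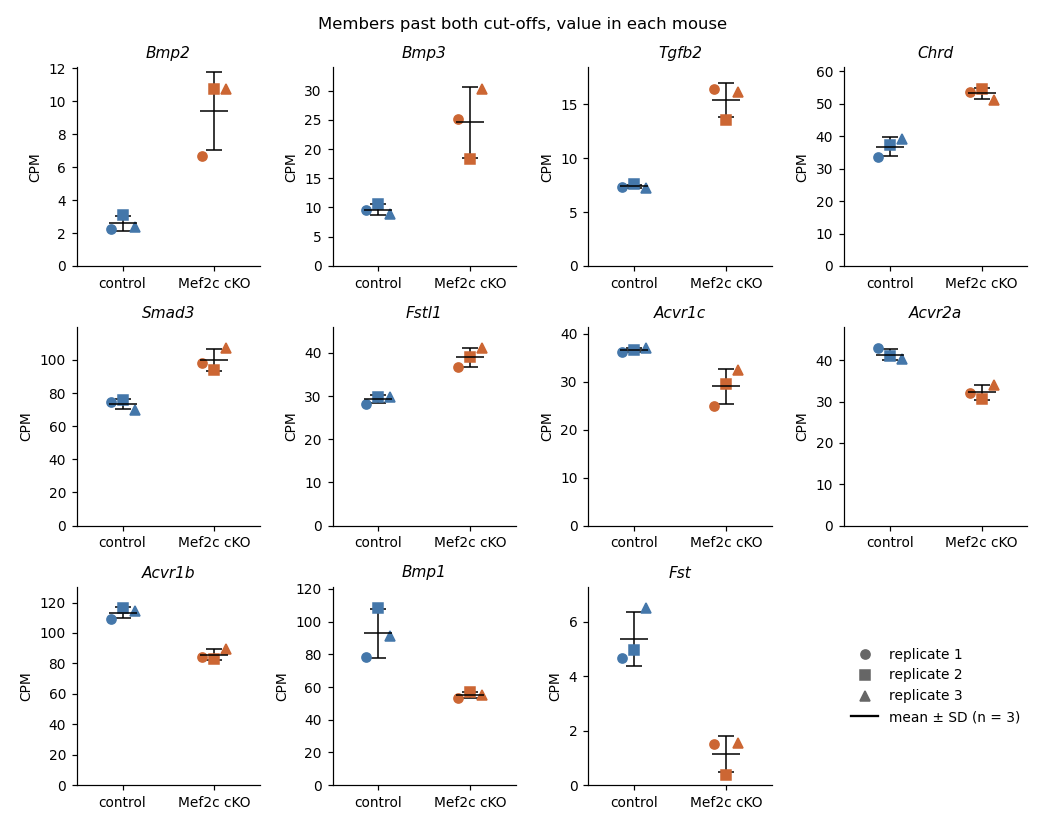
CPM (linear axis from 0) of the 11 called members in each mouse, in order of log2 fold change; symbols give the replicate number and bars the mean ± SD of 3 mice. For each gene the 3 Mef2c cKO mice lie wholly above or wholly below the 3 controls, with the widest gaps for Bmp2, Bmp3, Tgfb2 and Fst.

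The 3 ligand genes called were all higher, and 3 of 18 is near the 13.7% of all genes tested that were called. With no filter on low values, Bmp8a and Inhbe were also called, both lower. Of 18 ligand genes tested, 3 rose, none fell and 15 were not past the cut-offs. The summed CPM of all 27 ligand genes, the 3 called ones included, was 114 to 126 in controls and 152 to 170 in Mef2c cKO mice. At an unadjusted limma p under 0.05, 6 were higher and 1, Gdf5, was lower. The 3 that rose came from the TGF-beta and BMP groups, with none from the inhibin or GDF genes.

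Bmp2 (chromosome 2, 133377895 to 133388621, plus strand, mm9) encodes a BMP best known for inducing bone, which also acts on neural progenitors. It was at 2.26, 3.12 and 2.39 CPM in controls and at 6.69, 10.8 and 10.8 CPM in Mef2c cKO mice. The lowest Mef2c cKO mouse was above the highest control, and the means, 2.59 ± 0.46 and 9.40 ± 2.35 (SD, n = 3 each), differed 3.63-fold. The log2 fold change was 1.80 (SE 0.21, limma adjusted p = 3.7e-04). These values rest on 77 to 154 reads per control and 208 to 582 reads per Mef2c cKO mouse.

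Bmp3 (chromosome 5, 99283458 to 99309979, plus strand, mm9) encodes a divergent family member known mainly for opposing other BMPs and activin at their receptors. It was at 9.53, 10.6 and 8.85 CPM in controls and at 25.1, 18.3 and 30.3 CPM in Mef2c cKO mice. Each mutant mouse was above the controls, replicate 2 least. The log2 fold change was 1.31 (SE 0.17, limma adjusted p = 6.7e-04), and it was 1.51 without Mef2c cKO replicate 2.

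Tgfb2 (chromosome 1, 188447065 to 188529871, minus strand, mm9) is the TGF-beta isoform that neurons and astrocytes are best known to make. It was at 7.32, 7.57 and 7.24 CPM in controls and at 16.4, 13.6 and 16.2 CPM in Mef2c cKO mice. The controls lay within a narrow band that no Mef2c cKO mouse came near, and the means differed 2.09-fold (log2 fold change 1.05, SE 0.11, limma adjusted p = 1.7e-04). Tgfb1, known in brain mainly from microglia, showed -0.01 (95% interval -0.28 to 0.26) and Tgfb3 showed 0.10 (-0.12 to 0.31, limma adjusted p = 0.561). Per length, the 3 isoforms stood in controls at 1.52 CPM per kb of exon for Tgfb2, 2.16 for Tgfb1 and 3.39 for Tgfb3. Tgfb2 was the called one of the 3 and reached 3.18 CPM per kb in Mef2c cKO mice.

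Promoter sequence is shown for Tgfb2, the called ligand with an entry in the RefSeq promoter table used here (build GRCm38.p6, not the mm9 build of the counts), and for Acvr1b, the receptor gene with the largest fall; the table matched 7 of the 11 called members. The 250 bases before the annotated start are given 5′ to 3′, on chromosome 1 from 186705990 to 186706239 (minus strand) for Tgfb2 and on chromosome 15 from 101173822 to 101174071 (plus strand) for Acvr1b. Capitals mark matches on either strand to the MEF2 consensus, to CAGAC (the Smad-binding element), to GGCGCC (a site described for Smads) or to TATAAA (the TATA box):
Tgfb2: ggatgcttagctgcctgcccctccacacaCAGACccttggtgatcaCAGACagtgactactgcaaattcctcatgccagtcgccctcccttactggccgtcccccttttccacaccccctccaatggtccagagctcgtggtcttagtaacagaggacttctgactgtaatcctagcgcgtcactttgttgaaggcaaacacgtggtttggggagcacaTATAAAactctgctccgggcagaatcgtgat
Acvr1b: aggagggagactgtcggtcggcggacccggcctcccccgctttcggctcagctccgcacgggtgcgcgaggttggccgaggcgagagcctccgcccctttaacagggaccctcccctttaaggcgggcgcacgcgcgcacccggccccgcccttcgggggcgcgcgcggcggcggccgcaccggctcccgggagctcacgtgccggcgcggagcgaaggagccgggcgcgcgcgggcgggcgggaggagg
The Tgfb2 sequence held 2 matches to CAGAC and 1 to TATAAA and was 53.6% G + C. The Acvr1b sequence held no match and was 78.8% G + C with 42 CG pairs, against 8 for Tgfb2. Of 11112 promoters of tested genes, 1 per gene and of the same length, 40.7% held CAGAC, 16.7% held GGCGCC, 6.5% held TATAAA and 1.66% held the MEF2 consensus. Among the 7 called members with an entry, 2 held CAGAC, 1 held GGCGCC, 1 held TATAAA and 0 the MEF2 consensus. No match in this window says only that these letters are not there.

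The other BMP and GDF ligands were at low levels and were not called. Bmp6, a BMP best known for its part in iron balance, was at 3.38, 3.56 and 3.78 CPM in controls and at 6.23, 3.42 and 6.72 CPM in Mef2c cKO mice, with the value of replicate 2 among the controls (log2 fold change 0.54, limma adjusted p = 0.164). Gdf10, a divergent BMP that astroglia are known to make, was at 2.499 to 3.04 CPM in controls and at 3.91, 3.10 and 5.32 CPM in Mef2c cKO mice (0.54, adjusted p = 0.104). Both passed the cut-offs without Mef2c cKO replicate 2, at 0.84 (limma adjusted p = 0.0044) and 0.72 (adjusted p = 0.034). Bmp4 (0.31, adjusted p = 0.229) and Gdf11 (0.31, adjusted p = 0.143), a regulator of neuron production in the embryo, did not overlap between genotypes and were not called. Gdf5, a joint-forming ligand, was at 1.4995, 0.668 and 0.776 CPM in controls and at 0.122, 0.414 and 0.499 CPM in Mef2c cKO mice. Its log2 fold change of -1.33 was not past the cut-offs (adjusted p = 0.063), and it was -1.60 (adjusted p = 0.048) without Mef2c cKO replicate 3. Among the most abundant ligands not called, Bmp7 showed -0.08 (adjusted p = 0.780) and Gdf3 0.15 (adjusted p = 0.584); leaving out control replicate 3 turned Bmp7 to 0.028.

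The inhibin subunit genes, whose products pair into activins and inhibins, showed no call, and 0 of the 3 tested had an unadjusted limma p under 0.05. Inha, the alpha subunit found in inhibins, had the highest level per length of any ligand, 25.0 CPM per kb of exon in controls. It was at 34.3, 39.3 and 37.1 CPM in controls and at 39.1, 45.1 and 37.4 CPM in Mef2c cKO mice, with overlapping genotypes (log2 fold change 0.13, 95% interval -0.07 to 0.33, limma adjusted p = 0.369). Inhba (0.21, -0.19 to 0.61) and Inhbb (0.00, -0.43 to 0.43), the activin beta subunits, also overlapped.

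Summed markers of meninges, and of thalamus and striatum, were above every control in Mef2c cKO replicates 1 and 3 and below every control in replicate 2. Some members and their partners were also lowest in replicate 2 among the Mef2c cKO mice. Islr, a meningeal fibroblast marker, was at 8.50 to 9.64 CPM in controls and at 16.1, 8.49 and 16.8 CPM in Mef2c cKO replicates 1, 2 and 3, and Aldh1a2 was at 7.85, 2.79 and 7.76 CPM in those 3 mice. The 9 meningeal markers summed to 70.0 to 77.7 CPM in controls. In Mef2c cKO replicates 1, 2 and 3 they summed to 108, 60.9 and 108 CPM. None was called, 1 had an unadjusted limma p under 0.05 and log2 fold changes were positive for all 9. Adora2a, a marker of striatal neurons, was at 20.3, 1.35 and 14.1 CPM in the Mef2c cKO mice, and the 6 markers of thalamus and striatum summed to 97.0 to 125 CPM in controls and 66.2 to 182 CPM in Mef2c cKO mice. Bmp3, Bmp6 and Gdf10 were lowest in replicate 2 among the Mef2c cKO mice, as Islr, Aldh1a2, Adora2a and both marker sums were. Not every marker of thalamus and striatum followed the sum. Tcf7l2 was at 9.93, 7.66 and 7.43 CPM in Mef2c cKO replicates 1, 2 and 3. Lef1 was below every control in all 3 of these mice, at 4.34, 3.52 and 4.54 CPM. The Bmp3 difference was larger without that library, but this keeps only Mef2c cKO replicates 1 and 3, where the marker sums were highest. The part of the dissected tissue in the values of Bmp3, Bmp6 and Gdf10 was not tested.

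**Figure D2:**
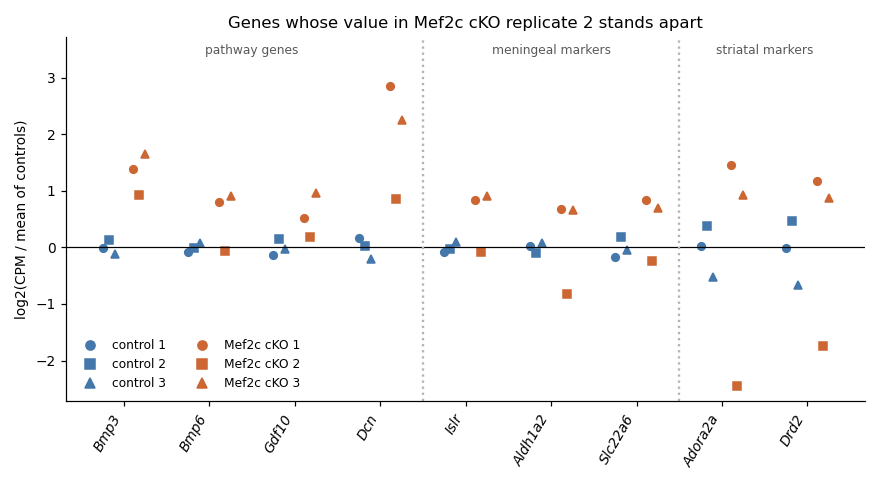
Log2 of CPM over the mean of the 3 controls in each mouse, for pathway genes (left), meningeal markers (middle) and striatal markers (right) chosen after their values were seen; symbols give the replicate. Mef2c cKO replicate 2 (orange square) lies below the other 2 Mef2c cKO mice for each gene shown, and Bmp3, Gdf10 and Dcn are still above every control in it.

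Bmp1 encodes a secreted metalloprotease, not a ligand, which trims procollagens and cleaves chordin. The gene (chromosome 14, 70874364 to 70920067, minus strand, mm9) was at 78.5, 108 and 91.3 CPM in controls and at 53.2, 56.9 and 55.2 CPM in Mef2c cKO mice. The Mef2c cKO values lay close together and below every control. The means fell from 92.7 ± 14.9 to 55.1 ± 1.86 CPM (SD, n = 3 each), a log2 fold change of -0.74 (SE 0.10, limma adjusted p = 0.0012).

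Among 11 type I and type II receptor genes tested, 3 fell, none rose past the cut-offs and 8 were not past them (2 higher and 4 lower at an unadjusted limma p under 0.05). Of all genes tested, 7.77% were called lower and 5.88% higher. The 3 that fell belong to the activin-type receptors, but these did not fall as a group. Acvr2b, another activin type II receptor, showed 0.15 with overlapping genotypes (limma adjusted p = 0.585). The 3 dedicated BMP receptor genes were not called. Summed over the 11 genes the level was 435 to 442 CPM in controls and 387 to 421 CPM in Mef2c cKO mice.

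Acvr1b encodes ALK4, the main type I receptor of activins. The gene (chromosome 15, 101004556 to 101043032, plus strand, mm9) had the highest level per length of all members in controls, 34.6 CPM per kb of exon. It was at 109, 116 and 114 CPM in controls and at 84.0, 82.9 and 89.7 CPM in Mef2c cKO mice, without overlap (log2 fold change -0.41, SE 0.06, limma adjusted p = 0.0013). Acvr2a, a type II receptor for activins and several BMPs (chromosome 2, 48669629 to 48758789, plus strand, mm9), was at 42.9, 41.0 and 40.3 CPM in controls and at 32.1, 30.6 and 34.0 CPM in Mef2c cKO mice. It fell in all 3 by a similar amount (-0.36, SE 0.07, limma adjusted p = 0.0064), and in the 12-week mice alone the adjusted p was 0.062 at -0.33.

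Acvr1c, which encodes ALK7, a type I receptor for nodal and some activins (chromosome 2, 58119864 to 58210306, minus strand, mm9), was at 36.2, 36.6 and 36.9 CPM in controls and at 25.0, 29.5 and 32.4 CPM in Mef2c cKO mice. The genotypes did not overlap, and the log2 fold change was -0.34 (SE 0.10, limma adjusted p = 0.038). This call was the least firm of the 11: it was kept in 7 of 15 alternative settings and in 1 of 6 settings that left out a mouse, that without Mef2c cKO replicate 3. Without any 1 of the other 5 mice the adjusted p lay between 0.073 and 0.101. Acvr2a overlaps the minus-strand gene Orc4 by 446 bases in the annotation.

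The receptors of BMPs and TGF-betas showed smaller differences. Acvr1, or ALK2, a type I receptor of BMPs, was at 57.0, 56.4 and 56.2 CPM in controls and at 69.0, 62.1 and 67.0 CPM in Mef2c cKO mice. Its adjusted p was 0.036, but its log2 fold change of 0.22 was under the cut-off. Bmpr1a, another BMP type I receptor, showed 0.20 without overlap (limma adjusted p = 0.087), Bmpr1b showed 0.02 (95% interval -0.15 to 0.18) and the type II receptor gene Bmpr2 -0.04 (-0.26 to 0.19, adjusted p = 0.846). Bmpr2 turned positive without control replicate 1 (0.030) or Mef2c cKO replicate 2 (0.057). Of the TGF-beta receptors, the type I gene Tgfbr1 showed -0.27 with overlapping genotypes (adjusted p = 0.119) and the type II gene Tgfbr2 -0.11 without overlap (adjusted p = 0.395). Tgfbr3, betaglycan, a co-receptor that presents TGF-beta2 and inhibin, showed 0.24 without overlap (adjusted p = 0.166).

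**Figure D3:**
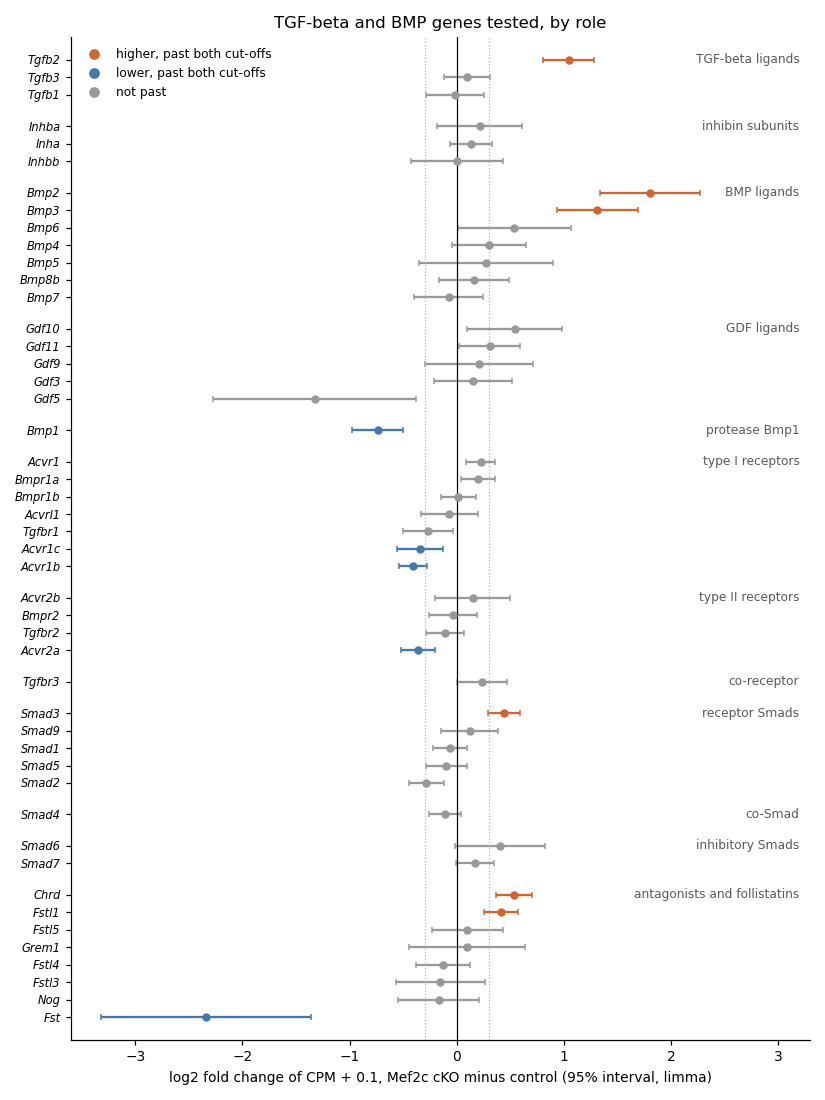
Log2 fold change (Mef2c cKO minus control, limma on log2(CPM + 0.1)) of 47 of the 48 members tested, with 95% intervals, grouped by role; dotted lines mark the 0.3 cut-off, orange and blue mark called genes. Called ligands lie to the right and called receptors to the left, and Fst has the lowest point at -2.34.

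Of 8 Smad genes tested 1 was called, which is near the 13.7% of all genes tested that were called. Smad3, a receptor Smad of the TGF-beta and activin branch (chromosome 9, 63494574 to 63605801, minus strand, mm9), was at 74.4, 75.6 and 69.7 CPM in controls and at 98.2, 94.1 and 107 CPM in Mef2c cKO mice. Every mutant value was above the controls, by 36.2% in the mean (log2 fold change 0.45, SE 0.07, limma adjusted p = 0.0017). Smad2, its partner in the same branch, moved the other way, from 27.7, 28.7 and 29.5 CPM to 23.4, 22.4 and 24.9 CPM. The genotypes did not overlap and the adjusted p was 0.03, but the log2 fold change of -0.28 was under the cut-off. It was past both cut-offs (-0.32) without Mef2c cKO replicate 3.

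The Smads of the BMP branch, the shared Smad4 and the inhibitory Smads were not called. Smad1 showed -0.07 (95% interval -0.22 to 0.09), Smad5 -0.10 (-0.29 to 0.09, limma adjusted p = 0.504) and Smad9 0.12 (-0.14 to 0.39). Smad4 showed -0.11 (-0.26 to 0.04, adjusted p = 0.334). Smad7, an inhibitory Smad that is itself induced by the pathway, was at 30.0, 27.4 and 31.4 CPM in controls and at 31.5, 33.5 and 34.9 CPM in Mef2c cKO mice, without overlap (0.17, adjusted p = 0.190). Smad6, which restrains the BMP branch, showed 0.40 (-0.02 to 0.83) with overlapping genotypes.

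The secreted antagonists and follistatin-like genes were called in both directions: of 9 tested, 2 rose, 1 fell and 6 were not past the cut-offs. Over all genes tested, 5.88% were called higher and 7.77% lower. Fst encodes follistatin, which binds activins almost irreversibly. The gene (chromosome 13, 115242470 to 115249159, minus strand, mm9) was at 4.67, 4.94 and 6.4996 CPM in controls and at 1.53, 0.36 and 1.53 CPM in Mef2c cKO mice. Each mutant mouse was far below the controls, and the log2 fold change was -2.34 (SE 0.43, limma adjusted p = 0.0056). The Mef2c cKO values rest on 50, 7 and 83 reads, against 159, 244 and 335 in controls, and the size depends on how low values are handled: it was -1.62 with a pseudocount of 1 and -1.73 without Mef2c cKO replicate 2, both past the cut-offs.

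Chrd encodes chordin, which binds BMPs and is inactivated by BMP1-type proteases. The gene (chromosome 16, 20733200 to 20742457, plus strand, mm9) was at 33.6, 37.4 and 39.3 CPM in controls and at 53.7, 54.6 and 51.3 CPM in Mef2c cKO mice. The Mef2c cKO mice were 44.8% higher in the mean, without overlap (log2 fold change 0.54, SE 0.07, limma adjusted p = 0.0011). Chrd overlaps the minus-strand gene Thpo by 1385 bases in the annotation. The libraries were directional, but the strand setting of the counting is not given in the sources used here. Fstl1, a secreted glycoprotein related to follistatin and known from astrocytes and mesenchymal cells (chromosome 16, 37776959 to 37836600, plus strand, mm9), was at 28.1, 29.9 and 29.8 CPM in controls and at 36.7, 39.1 and 41.1 CPM in Mef2c cKO mice. It rose in all 3 (0.41, SE 0.07, limma adjusted p = 0.0038). Nog, encoding the BMP antagonist noggin, showed -0.17 (95% interval -0.54 to 0.21), and Fstl4, the most abundant of the group not called, showed -0.13 (-0.38 to 0.13, adjusted p = 0.516).

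Per length of exon the members spanned a wide range of levels. In controls, Acvr1b (34.6), Inha (25.0) and Bmp1 (22.3 CPM per kb of exon) were highest, followed by Smad4 (13.5) and Smad3 (13.2). In Mef2c cKO mice Smad3, at 18.01, was above Bmp1, at 13.3 CPM per kb. Bmp2 went from 0.73 to 2.64 CPM per kb and Fst from 1.999 to 0.425 CPM per kb, so both stayed below the receptor genes that were called.

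**Figure D4:**
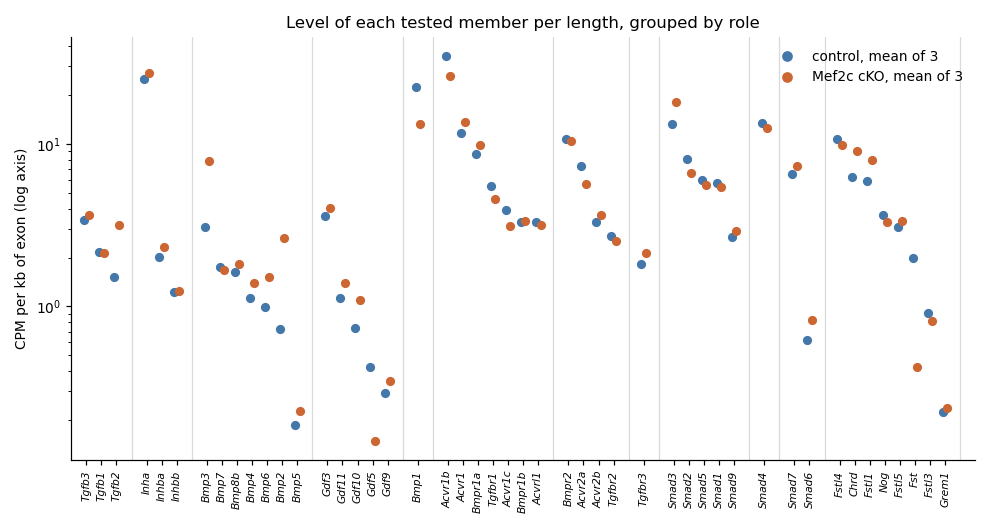
Mean CPM per kb of union exon length (log axis) of 47 of the 48 members tested in controls (blue) and Mef2c cKO mice (orange), ordered by level in controls within each role. Receptors and Smads lie mostly above the ligands, and the pairs of points part most for Bmp2, Bmp3, Fst and Gdf5.

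Other genes of the pathway were taken from a list of 70, of which 60 were tested: 11 rose, 6 fell and 43 were not past the cut-offs. The called share was 28.3%, beside 13.7% of all genes. The list was chosen with earlier results of these data known, so this share is a description and was not tested as an excess. The median log2 fold change of the 60 was 0.07.

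Of 12 known target genes tested, 6 rose and none fell (7 and 2 at an unadjusted limma p under 0.05). Of all genes tested, 5.88% rose and 7.77% fell past the cut-offs. Id1 and Id3, inhibitors of basic helix-loop-helix factors and classic BMP targets, rose by 0.77 (SE 0.12, limma adjusted p = 0.0023) and 1.04 (SE 0.14, adjusted p = 7.7e-04) on the log2 scale. Id3 was at 32.6, 38.4 and 35.3 CPM in controls and at 93.1, 64.8 and 64.4 CPM in Mef2c cKO mice. The helix-loop-helix gene Atoh8 rose from 0.71, 1.01 and 1.11 CPM to 4.09, 2.33 and 3.33 CPM (1.67, SE 0.24, adjusted p = 0.0014), without overlap. Skil, a Smad co-repressor induced by TGF-beta, rose by 0.44 (adjusted p = 0.0032). Msx1 (0.62, adjusted p = 0.043) and Id4 (0.47, adjusted p = 0.03) were also called, but each was kept in only 7 of 15 alternative settings. The target genes not past the cut-offs included Id2 at -0.20 (adjusted p = 0.122) and Ctgf at 0.74 (adjusted p = 0.097). Bambi at -0.39 (limma adjusted p = 0.135) and Pmepa1 at -0.18 (adjusted p = 0.181) were lower without overlap and also not past them. These genes were chosen after their values were seen.

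Genes that hold or free latent TGF-beta fell where they were called: of 9 tested, 3 fell and none rose (3 and 1 at an unadjusted limma p under 0.05). The shares of all genes tested were 7.77% lower and 5.88% higher. Itgav, the alpha-v integrin subunit that activates latent TGF-beta with its beta partners, was at 203, 182 and 188 CPM in controls and at 93.5, 93.4 and 99.1 CPM in Mef2c cKO mice. It was down 2.01-fold without overlap (log2 fold change -1.004, SE 0.06, limma adjusted p = 9.7e-06). Itgb8, a beta partner of it in this activation, showed -0.42 (adjusted p = 0.0081), and Lrrc32, which tethers latent TGF-beta at the cell surface and is also called GARP, showed -1.42 (adjusted p = 3.4e-04). The latent TGF-beta binding protein genes Ltbp1, Ltbp2, Ltbp3 and Ltbp4 were not past the cut-offs, at 0.07 to 0.16.

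Further antagonists and modulators outside the symbol rule moved both ways. Chrdl1, a chordin-like BMP antagonist that astrocytes secrete, fell from 20.1, 16.6 and 16.2 CPM to 7.79, 7.92 and 7.24 CPM (log2 fold change -1.19, SE 0.11, limma adjusted p = 1.1e-04). Crim1, a transmembrane protein that binds BMPs, rose from 57.7, 48.6 and 58.1 CPM to 102, 102 and 104 CPM (0.91, SE 0.08, adjusted p = 6.1e-05). Twsg1, a chordin and BMP binding protein named here although outside the 15 genes of largest change, rose by 0.36 (adjusted p = 0.017). The Twsg1 call was kept in 11 of 15 alternative settings and in 3 of 6 that left out a mouse. Dcn, a matrix proteoglycan that binds TGF-beta, was at 7.88, 7.17 and 6.15 CPM in controls and at 50.8, 12.7 and 33.5 CPM in Mef2c cKO mice, again lowest in replicate 2 (1.97, SE 0.40, adjusted p = 0.0092). Lefty1, a nodal antagonist, rose from 0.56, 0.65 and 0.54 CPM to 1.92, 1.29 and 1.64 CPM (1.32, adjusted p = 0.0024). Hfe2, a BMP co-receptor called hemojuvelin, fell from 1.47, 1.94 and 1.34 CPM to 0.31, 0.26 and 0.33 CPM (-2.07, adjusted p = 2.6e-04). Of the Smad partners, Zeb2 rose by 0.37 (adjusted p = 0.015), a call kept in 12 of 15 alternative settings. Zeb1 showed -0.35 (adjusted p = 0.0026, also outside the 15 genes of largest change), and 12 of 14 partners were not past the cut-offs. None of the 5 genes listed for Smad-independent signalling was called by limma or had an unadjusted p under 0.05.

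**Figure D5:**
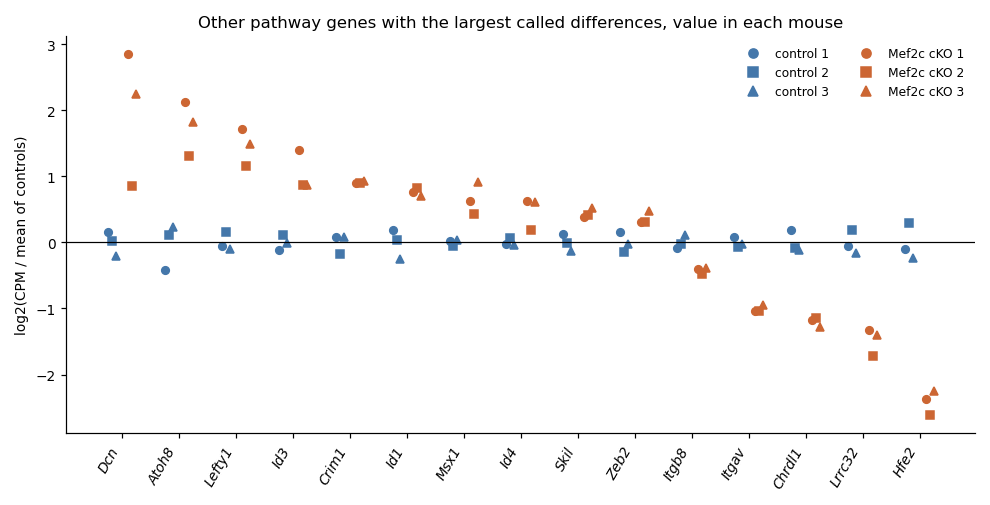
Log2 of CPM over the mean of the 3 controls in each mouse, for the 15 other pathway genes with the largest called differences; blue is control, orange Mef2c cKO, and symbols give the replicate. Genotypes do not overlap for any of the 15, and Dcn and Atoh8 spread most among the Mef2c cKO mice.

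Marker lists of the cell types in the tissue differed in how their genes moved. Among 10 astrocyte markers Gfap and Aqp4 rose, Aldh1l1 fell and 7 were not past the cut-offs, with sums of 4385 to 4661 CPM in controls and 3909 to 4187 CPM in Mef2c cKO mice. Slc1a2, which was not called, made up most of these sums, with means of 3407 CPM in controls and 2864 CPM in Mef2c cKO mice. Among 10 pyramidal neuron markers 3 rose and 3 fell, and their sums overlapped (5841 to 6943 and 5962 to 7003 CPM). Camk2a, Slc17a7 and Nrgn, none of them called, made up most of the pyramidal sums. Cux2 and Rorb showed log2 fold changes of -1.74 each, and Neurod6 showed 1.34. Of 10 interneuron markers 2 rose and 1 fell. All 10 oligodendrocyte markers had positive log2 fold changes, with a median of 0.49; 2 were called and 8 were higher at an unadjusted limma p under 0.05. Of 6 oligodendrocyte precursor markers 3 rose, and 4 were higher and 0 lower at that unadjusted p. The oligodendrocyte sums were 3280 to 5383 CPM in controls and 5311 to 6824 CPM in Mef2c cKO mice. None of 10 microglial, 10 endothelial, 8 mural, 3 choroid plexus or 3 blood markers tested was called by limma. Their unadjusted p was under 0.05 for 3 microglial, 1 endothelial, 2 mural and 1 choroid plexus marker and for 0 blood markers. Slc17a7, a marker in the pyramidal neuron list, was at 1137 to 1289 CPM in every library. The part of these cell types in the values of the members was not tested.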

How the data were processed

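Polyadenylated RNA from the somatosensory cortex of 6 mice was sequenced from directional libraries. Per the labels and the study's methods, the authors aligned reads to mm9 with TopHat and Bowtie, counted them on UCSC genes with HTSeq and deposited RPKM values, 1 table per mouse. The strand setting and the versions are not given in the sources used here. The lengths behind these RPKM repeat down the rows and differ between tables, so that deposited values of 1 gene are not comparable between mice. Whole reads were therefore recovered per table from the steps of the values, for 99.98% to 100.0% of values above 0 (whole within 1.2 times the rounding error of the printed value), summing to 99.99% of the recovered totals. Rows without a gene name (92) held 0.057% to 0.085% of the reads and were left out.

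CPM were tested with limma 3.58.1 (R 4.3.3) on log2(CPM + 0.1), 3 controls against 3 Mef2c cKO mice, with a variance trend, for genes above 0.5 CPM in every mouse of a genotype, and p-values were adjusted over all genes tested. Cut-offs follow the study's thresholds. Each library is 1 mouse, so p-values measure the spread between these mice. Exon lengths and positions come from GENCODE M1 on the mm9 genome, and promoters from RefSeq. Members, gene lists and tests were chosen with earlier results of these data known. Named were every called member with its values, those without overlap or with unadjusted p under 0.05, the most abundant member not called in each role, and at most 15 other pathway genes by size of change. On simulated tables of 21667 genes with 200 changed, 99.99% to 100% of counts matched the truth, 80% of genes changed by 0.4 log2 and 100% of those changed more were called, and 4 of 14442 unchanged genes were called. The simulation gave all genes 1 common small spread between mice. These rates therefore do not cover genes that vary more, such as Fst (1.14 ± 0.67 CPM, SD, in Mef2c cKO mice). Alternatives covered pseudocount, filter, scaling, variance model, block, age and each mouse. Some genes enter the counts but are not reported here by name.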

Additional observations from a re-analysis of the deposited data

How the results depend on the processing

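Over 15 alternative settings on the recovered reads, 9 of the 11 called members passed both cut-offs in each, with 1 direction throughout; the exceptions were Acvr1c (7 of 15) and Acvr2a (14 of 15). The number of called members ranged from 9 in the 12-week mice alone to 13, with 10 to 13 when 1 mouse was left out. With no filter on low values 13 were called, as Bmp8a and Inhbe were added. In the 12-week mice alone, 2 per genotype, 3 members were lower in place of 5. Of the 17 other pathway genes called, 13 were called in every setting in which they were tested, and their number was 13 to 21 when 1 mouse was left out (21 without Mef2c cKO replicate 2, 13 without Mef2c cKO replicate 3). On the deposited RPKM, log2(RPKM + 0.1), 17 members could be tested and 0 were called, with 0 higher, 0 lower, 0 other pathway genes and 14 of 7974 genes; 3 of the 17 had an unadjusted p under 0.05 in limma, and the median SE of all genes was 1.65, against 0.09 on the recovered reads. There the sign turned for Acvr1 (-1.83), Tgfbr3 (-2.70), Smad4 (1.14), Fstl4 (0.14), Smad5 (0.84) and Skil (-0.53), none called on those values, where the lengths used for a gene differ between mice. Among members not called, Gdf3 turned to -0.12 in the 12-week mice alone, Bmpr2 ran from -0.105 to 0.057 and Bmp7 from -0.192 to 0.028 when 1 mouse was left out, positive for Bmpr2 without control replicate 1 or Mef2c cKO replicate 2 and for Bmp7 without control replicate 3; the cause was not tested.

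No pairing of the mice by replicate number was seen: deviations of same-numbered mice correlated at -0.176, -0.109 and -0.082 across genes. The study compared littermates, and the litter of each mouse is not given in the sources used here. Pairing by litter can therefore not be excluded. In a fit with a block for replicate number, 10 members were called (6 higher and 4 lower, Acvr1c at adjusted p = 0.056) and 1695 genes in all, against 1997. Depth limits Fst, with as few as 7 reads in 1 mouse, and the genes under 2 CPM.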

Other observations

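Members under the filter on low values were not part of the comparison, 9 of the 57. Gdf2, a ligand of Acvrl1 in vessels, had 0 reads in each library, and Bmp10, Bmp15, Gdf6, Gdf7, Gdf15 and Inhbc had at most 11 reads in any. Inhbe, a subunit gene best known from liver, was at 0.62, 0.61 and 0.37 CPM in controls and at 0.12, 0.10 and 0.15 CPM in Mef2c cKO mice, from 21, 30 and 19 reads and 4, 2 and 8 reads. Bmp8a was at 0.41, 0.79 and 0.37 CPM in controls and at 0.06, 0.26 and 0.06 CPM in Mef2c cKO mice. The genotypes did not overlap for either gene. With no filter, limma gave log2 fold changes of -1.47 (SE 0.23, adjusted p = 0.0033) for Inhbe and -1.52 (SE 0.38, adjusted p = 0.029) for Bmp8a. Bmp8a is a relative of Bmp8b, and its gene span overlaps that of Oxct2a on the same strand by 1760 bases. Shared exons and reads that fit more than 1 of these genes were not checked, so its value is uncertain. Gdf6 also showed no overlap, from 2, 5 and 3 reads in controls and 1, 1 and 2 reads in Mef2c cKO mice, counts too low to show a difference.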
